A study of Homo sapiens with 18 samples.

Results

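ATF4 is the transcription factor that carries out much of the cell's answer to amino acid shortage and to other forms of stress, and 40 genes of its programme are described here. They are enzymes of serine, one-carbon and amino acid synthesis, amino acid transporters, transcription regulators, stress effectors and secreted or surface proteins, taken by symbol from the literature on ATF4 and the amino acid response. The list was chosen with earlier results of these data known, so counts of its genes beside all genes are descriptions. Of the 40 symbols 38 were measured, among 18132 genes in all, and CBS and GPT2 were not analysed here. They were read on 18 expression arrays, 3 for each of 6 groups, from WiDr and HT29 cells, which are established lines of human colorectal cancer.

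The groups were WiDr treated with AZ628, WiDr transduced with a short hairpin RNA (shRNA) against IKKα, WiDr transduced with a control shRNA, WiDr treated with vehicle, HT29 treated with AZ628 and HT29 treated with vehicle. AZ628 is an inhibitor of RAF kinases, which relay growth signals to MEK and ERK, and both lines are known for an activated BRAF. IKKα is the kinase encoded by CHUK. The lines are not unrelated models, since WiDr is thought to descend from HT29. The labels give neither a dose nor a time for AZ628, name 1 shRNA group per target and are silent on whether the 3 arrays of a group stand for separate cultures. The p-values therefore measure array-to-array spread, part or all of which may be technical.

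When uncharged tRNAs accumulate, the kinase GCN2 phosphorylates the initiation factor eIF2α. Most translation then slows, while ATF4 mRNA is translated more. The same step is reached from the stressed endoplasmic reticulum through PERK, from viral RNA through PKR and from haem shortage through HRI, and the whole is called the integrated stress response. ATF4 pairs with C/EBP proteins on composite sites of the form TGATGNAA, and its targets import amino acids, make serine, glycine, asparagine and proline, feed one-carbon units to nucleotide synthesis, and include the regulators that end the response. Growth signals and mTORC1 also act on ATF4 in proliferating cells. ATF4 itself is controlled largely by translation, so the arrays do not read its protein.

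The composite site was looked for in the promoters, since the members moved in groups. Sequences were those of RefSeq on GRCh38.p14, with 250 bases before each listed start, and the letters TGATGNAA were searched on both strands, where N is any base. Of the 38 members 31 had an entry, and those without one were PSPH, SHMT2, ALDH1L2, PYCR1, SLC7A11, NUPR1 and VEGFA. The letters were present for 7 of the 31 (22.6%), against 1061 of the 27305 genes in the table (3.89%). By window they were present for 8 of 50 (16%), against 3.14% of all 35116 windows. Since the members were listed beforehand as genes of the ATF4 programme, the larger share is a description and not a test. Of the 16 genes that were lower with AZ628 and higher with IKKα shRNA, 13 had an entry. The 5 of these that held the letters are shown, with the match in capitals on the gene's strand. For ASNS (chr7:97872409-97872658, minus strand) and CHAC1 (chr15:40953221-40953470, plus strand, match read on the other strand) the match lay before every listed start, and the whole 250 bases are given. For MTHFD1L (chr6:150866346-150866375, plus strand), CEBPG (chr19:33374060-33374089, plus strand) and SLC1A5 (chr19:46784893-46784922, minus strand) it lay before at least 1 listed start but after the first one, and 30 bases around it are given. JDP2 and FGF21 held the letters too.
ASNS: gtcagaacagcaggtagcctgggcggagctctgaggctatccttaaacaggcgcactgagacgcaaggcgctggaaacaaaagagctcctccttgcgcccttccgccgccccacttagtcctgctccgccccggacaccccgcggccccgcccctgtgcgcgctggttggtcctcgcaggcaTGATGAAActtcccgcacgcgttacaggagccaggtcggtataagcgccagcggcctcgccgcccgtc
CHAC1: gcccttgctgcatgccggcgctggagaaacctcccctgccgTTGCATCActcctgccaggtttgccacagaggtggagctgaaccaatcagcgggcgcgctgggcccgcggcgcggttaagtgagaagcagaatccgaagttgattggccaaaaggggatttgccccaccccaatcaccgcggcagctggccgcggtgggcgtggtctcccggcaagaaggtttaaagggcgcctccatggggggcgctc
MTHFD1L: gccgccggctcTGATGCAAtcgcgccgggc
CEBPG: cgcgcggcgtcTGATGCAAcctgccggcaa
SLC1A5: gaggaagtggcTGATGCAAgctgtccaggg
A match in these windows is a run of letters and says nothing of binding, and its absence covers only the window searched.

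Arrays of the same group correlated at 0.9971 to 0.9985 over all genes and arrays of different groups at 0.9555 to 0.9963, and array medians lay between 5.98 and 6.08 on the log2 scale. CHUK, the transcript targeted by the knockdown, read 7.68, 7.23 and 7.65 with IKKα shRNA, against 9.68, 9.45 and 9.78 with control shRNA, a difference of -2.12 ± 0.12 (SE, adjusted p = 4.11e-10). It was also lower with AZ628, by -0.43 in WiDr and -0.37 in HT29, calls that were lost without some single arrays (adjusted p up to 0.0537 and 0.0806). DUSP6, a feedback phosphatase of ERK, differed with AZ628 by -4.14 in WiDr and -4.66 in HT29. The epithelial genes EPCAM, CDH1, KRT8 and KRT18 had 18-array means of 12.3 to 14.2. CDX2 and CDH17 had means of 6.46 and 5.49, below the median gene mean of 6.86. Of 5 blood genes PTPRC was near the floor (3.18), while HBB read 6.46 and LYZ 13.8. The summed linear signal of 7 fibroblast genes was 228 to 250 with IKKα shRNA, against 155 to 158 with control shRNA and 160 to 195 with vehicle in WiDr, where AZ628 gave 178 to 194. It was 220 to 245 with AZ628 in HT29, against 178 to 195 with vehicle, and LUM among them ranged from 3.07 to 6.51 over the 18 arrays. Their part in the results was not tested.

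With AZ628, most genes for one-carbon units, the gene for asparagine synthesis and most amino acid importers fell in both lines, whereas a group of stress genes rose. The genes for serine and proline synthesis were divided. In WiDr 22 of the 38 members were lower, 6 were higher and 10 did not pass, where 44.6% of all genes passed (adjusted p under 0.05), 23.4% upward and 21.1% downward. In HT29 20 were lower, 7 were higher and 11 did not pass, where 43.6% of all genes passed, 22.5% upward and 21% downward. The median log2 difference of the members was -0.36 in WiDr and -0.21 in HT29, against -0.00 and 0.00 over all genes. Past 2-fold, 11 members were lower in WiDr and 10 in HT29, beside 4.35% and 4% of all genes, and 2 members were higher in each, beside 4.32% and 3.24%. The groups did not overlap for 31 members in WiDr and 27 in HT29, beside 51.1% and 49.1% of all genes. In RNA from whole cultures, fewer cells of a type and less RNA per cell cannot be told apart.

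**Figure D1:**
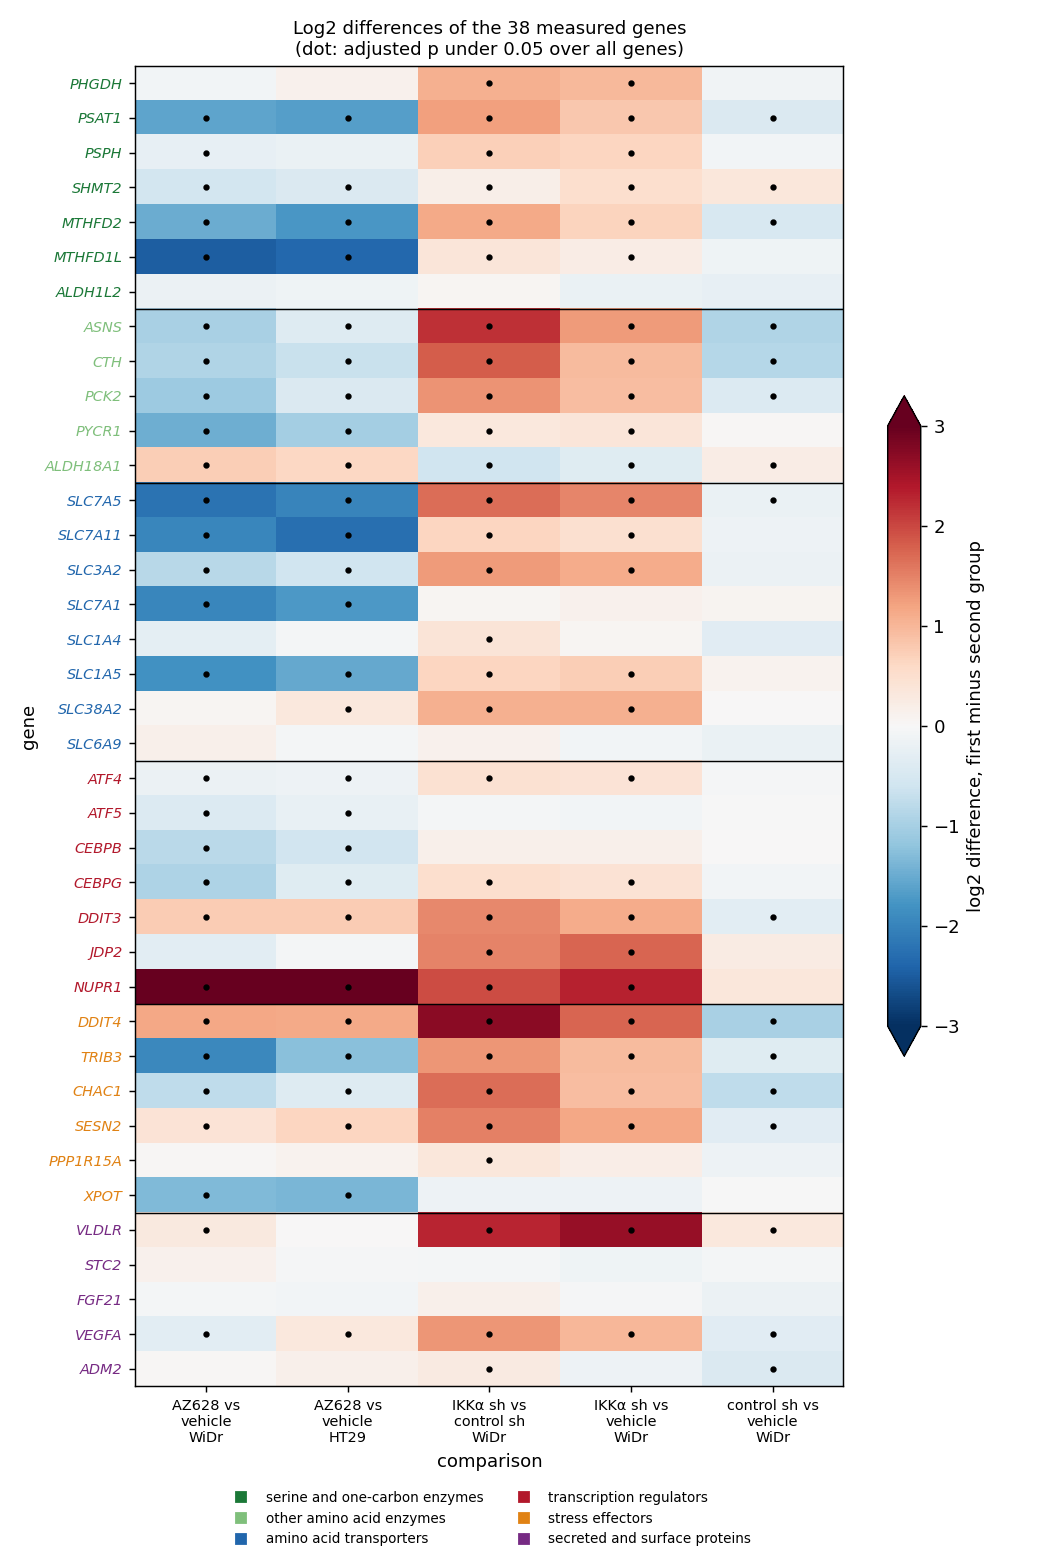
Log2 differences (colour, capped at 3 in size) of the 38 measured genes (vertical axis, by role) in 5 comparisons (horizontal axis), the first-named group minus the second, where a dot marks an adjusted p under 0.05 over all genes. MTHFD1L, at -2.46 with AZ628 in WiDr, and NUPR1, at 3.98, are the extremes of the first column.

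Among the one-carbon enzymes of the mitochondrion, MTHFD1L gave the largest fall of all members in WiDr and HT29. MTHFD1L, which makes formate there, read 8.55, 8.46 and 8.41 with AZ628 in WiDr, against 10.86, 10.98 and 10.99 with vehicle, a difference of -2.46 ± 0.07 (SE, 5.52-fold lower, adjusted p = 2.52e-14). In HT29 it read 7.87, 7.74 and 7.96 with AZ628, against 10.18, 10.31 and 10.14 with vehicle (-2.35 ± 0.07, adjusted p = 7.45e-14). No treated array came near a control array in either line. MTHFD2, the step before it, differed by -1.48 ± 0.08 in WiDr and -1.75 ± 0.08 in HT29. SHMT2, which takes the carbon from serine, differed by less, -0.56 in WiDr and -0.42 in HT29, and passed in both. ALDH1L2, which oxidises formyl-folate, was dim, with an 18-array mean of 4.60 where 25% of genes lay below 4.72, and passed in no comparison.

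The serine pathway itself did not move as 1 unit. PSAT1, its transaminase, read 10.05, 10.11 and 9.87 with AZ628 in WiDr, against 11.54, 11.59 and 11.62 with vehicle (-1.57 ± 0.11, adjusted p = 2.06e-09). In HT29 it read 9.89, 9.54 and 9.99999 with AZ628, against 11.34, 11.62 and 11.40 with vehicle (-1.64 ± 0.11, adjusted p = 1.44e-09). The groups were far apart in both lines. PHGDH, the first and committed step, read 9.39, 9.31 and 9.46 with AZ628 in WiDr, against 9.35, 9.64 and 9.44 with vehicle, and the groups overlapped. Its difference was -0.09 in WiDr (95% interval -0.24 to 0.06, adjusted p = 0.367) and 0.13 in HT29 (-0.02 to 0.29, adjusted p = 0.164). PSPH, the last step, differed by -0.24 ± 0.08 in WiDr (adjusted p = 0.0228) and by -0.20 ± 0.08 in HT29, where it did not pass (adjusted p = 0.0578). The WiDr call for PSPH was lost without AZ628 replicate 3 (adjusted p = 0.0992) and without vehicle replicate 2 (0.0799), in a range of 0.00587 to 0.0992 over its alternatives.

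Of the 5 other amino acid enzymes measured, 4 fell in both lines. ASNS, asparagine synthetase and the classic ATF4 target, read 10.86, 10.81 and 10.78 with AZ628 in WiDr, against 11.33, 12.10 and 11.91 with vehicle (-0.97 ± 0.13, adjusted p = 5.55e-06). HT29 arrays read 10.76, 10.71 and 10.82 with AZ628, against 11.05, 11.28 and 11.10 with vehicle (-0.38 ± 0.13, adjusted p = 0.0227). The treated arrays lay at the same level in both lines, and the WiDr vehicle arrays were the spread ones. The HT29 call for ASNS did not hold after a further quantile normalization (adjusted p = 0.0675) or without AZ628 replicate 1 (adjusted p = 0.0528), AZ628 replicate 2 (0.0682) or vehicle replicate 2 (0.0977), and over all its alternatives the adjusted p ran from 0.00408 to 0.0977. CTH, which makes cysteine from cystathionine, differed by -0.90 ± 0.12 in WiDr and -0.66 ± 0.12 in HT29. PCK2, the mitochondrial phosphoenolpyruvate carboxykinase, differed by -1.08 ± 0.12 in WiDr and -0.44 ± 0.12 in HT29.

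The enzymes of proline synthesis went opposite ways. PYCR1, the last step, differed by -1.46 ± 0.06 with AZ628 in WiDr and -1.01 ± 0.06 in HT29. Its 6 probe sets ranged from -1.63 to -0.02 in WiDr, and the probe set whose name marks a single transcript gave -0.02 (adjusted p = 0.945). ALDH18A1, the first step, read 11.89, 11.85 and 11.86 with AZ628 in WiDr, against 11.22, 11.07 and 11.10 with vehicle (0.74 ± 0.05, adjusted p = 3.15e-09). In HT29 it was higher by 0.61 ± 0.05 (adjusted p = 4.28e-08). It was the 1 enzyme of the set that rose with the inhibitor in both lines.

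Among the 8 transporters, 5 fell in both lines. SLC7A5, the carrier of large neutral amino acids, read 7.38, 7.30 and 7.18 with AZ628 in WiDr, against 9.51, 9.50 and 9.48 with vehicle (-2.21 ± 0.07, 4.62-fold lower, adjusted p = 4.18e-14). In HT29 the values were 7.33, 7.22 and 7.40 with AZ628, against 9.34, 9.33 and 9.23 with vehicle (-1.98 ± 0.07, adjusted p = 2.5e-13). Treated and control arrays were about 2 log2 units apart in each line, although the gene's other probe set gave -0.09 in both. SLC7A11, which exchanges cystine for glutamate, read 9.79, 9.87 and 9.72 with AZ628 in WiDr, against 11.60, 11.95 and 11.69 with vehicle (-1.95 ± 0.10, adjusted p = 1.53e-11). In HT29 it read 9.51, 9.32 and 9.09 with AZ628, against 11.56, 11.64 and 11.54 with vehicle (-2.27 ± 0.10, adjusted p = 3.28e-12). Every treated array lay below every control array. SLC3A2, the heavy chain that both carriers need, differed by -0.83 ± 0.08 in WiDr and -0.60 ± 0.08 in HT29.

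SLC1A5, a glutamine carrier, differed by -1.81 ± 0.06 with AZ628 in WiDr and -1.53 ± 0.06 in HT29. SLC7A1, which imports arginine and lysine, read 7.80, 7.98 and 7.86 with AZ628 in WiDr, against 9.75, 10.0045 and 9.75 with vehicle (-1.95 ± 0.07, adjusted p = 5.37e-13). Its 4 probe sets ranged from -2.10 to -0.25 in WiDr, and the one whose name marks a single transcript gave -0.25 (adjusted p = 0.189). SLC38A2, an adaptive glutamine and alanine carrier, differed by 0.05 in WiDr (95% interval -0.13 to 0.23) and by 0.32 ± 0.09 in HT29 (adjusted p = 0.00431). Averaging its 3 probe sets turned both values, to -0.33 and -0.06. SLC1A4 and the glycine carrier SLC6A9 passed in neither line, but SLC1A4 in WiDr, at -0.29, became -0.53 with the mean of its 6 probe sets (adjusted p = 1.88e-05) and -0.36 with centred arrays (adjusted p = 0.0324).

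The regulators were divided as well. ATF4 read 12.74, 12.66 and 12.71 with AZ628 in WiDr, against 12.86, 12.93 and 12.86 with vehicle (-0.18 ± 0.05, adjusted p = 0.00745). HT29 arrays read 12.56, 12.52 and 12.48 with AZ628, against 12.59, 12.73 and 12.68 with vehicle (-0.15 ± 0.05, adjusted p = 0.0256). The groups did not overlap, but the shifts were small. Quantile normalization of the values once more ended both calls (adjusted p = 0.0507 in WiDr and 0.173 in HT29, in ranges of 0.000317 to 0.0507 and 0.00229 to 0.173 over the alternatives), and the HT29 call was also lost without AZ628 replicate 2 or 3 or vehicle replicate 2 or 3 (adjusted p = 0.0556 to 0.110). Of its partners, CEBPB read 10.29, 10.46 and 10.16 with AZ628 in WiDr, against 11.23, 11.10 and 11.01 with vehicle (-0.81 ± 0.09, adjusted p = 3.64e-07), and differed by -0.58 ± 0.09 in HT29. CEBPG differed by -0.93 ± 0.09 in WiDr and -0.37 ± 0.09 in HT29, and ATF5, a close relative of ATF4, by -0.40 in WiDr and -0.21 in HT29. The HT29 call for ATF5 was lost without vehicle replicate 1 (-0.13, adjusted p = 0.0942), without AZ628 replicate 2 (0.0603) and with only the groups of the comparison in the fit (0.084), in a range of 0.00243 to 0.0942 over the alternatives.

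NUPR1, a small stress-induced chromatin protein, gave the largest rise among the members. It read 10.59, 10.61 and 10.56 with AZ628 in WiDr, against 6.05, 7.16 and 6.59 with vehicle (3.98 ± 0.17, 15.8-fold higher, adjusted p = 2.82e-12). In HT29 the values were 9.86, 9.63 and 9.95 with AZ628, against 6.30, 6.36 and 6.46 with vehicle (3.44 ± 0.17, 10.9-fold higher, adjusted p = 2.46e-11). DDIT3, the pro-apoptotic factor CHOP, read 7.53, 7.24 and 7.33 with AZ628 in WiDr, against 6.64, 6.66 and 6.51 with vehicle (0.76 ± 0.11, adjusted p = 9.85e-06), and was higher by 0.77 ± 0.11 in HT29. Each stood above its controls on all 3 treated arrays of both lines. JDP2, a repressor of the AP-1 family, passed in neither line, but some alternatives called it lower. In WiDr the mean of its probe sets gave -0.29 (adjusted p = 0.0128), and only the groups of the comparison in the fit gave -0.31 (0.0470). In HT29 the value without AZ628 replicate 3 was -0.41 (adjusted p = 0.0371).

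Of the 6 stress effectors, the inhibitors of mTORC1 rose while TRIB3 and CHAC1 fell. DDIT4, also called REDD1, read 10.51, 10.45 and 10.50 with AZ628 in WiDr, against 9.17, 9.75 and 9.03 with vehicle (1.17 ± 0.13, adjusted p = 4.83e-07), and was higher by 1.14 ± 0.13 in HT29. SESN2, a leucine-binding inhibitor of mTORC1, read 8.17, 8.08 and 8.16 with AZ628 in WiDr, against 7.73, 7.84 and 7.58 with vehicle (0.42 ± 0.07, adjusted p = 3.47e-05), and was higher by 0.65 ± 0.07 in HT29. Neither gene's groups overlapped. TRIB3, a pseudokinase that restrains ATF4, read 8.79, 8.82 and 8.79 with AZ628 in WiDr, against 10.38, 11.18 and 10.64 with vehicle (-1.93 ± 0.13, adjusted p = 8.75e-10). In HT29 it read 8.30, 8.21 and 8.36 with AZ628, against 9.49, 9.58 and 9.53 with vehicle (-1.25 ± 0.13, adjusted p = 3.21e-07). CHAC1, which degrades glutathione, read 7.13, 6.95 and 6.75 with AZ628 in WiDr, against 7.97, 7.75 and 7.41 with vehicle (-0.77 ± 0.14, adjusted p = 0.00014). Its HT29 difference of -0.39 ± 0.14 (adjusted p = 0.0279) did not hold with the mean of its probe sets or without AZ628 replicate 1, AZ628 replicate 2 or vehicle replicate 2, in a range of 0.00949 to 0.143 over the alternatives. XPOT, the exporter of tRNA from the nucleus, differed by -1.33 ± 0.10 in WiDr and -1.37 ± 0.10 in HT29, and PPP1R15A, the stress-induced regulatory subunit that dephosphorylates eIF2α, passed in neither.

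The secreted and surface members moved little with AZ628. VEGFA, the angiogenic factor, read 10.32, 10.13 and 10.19 with AZ628 in WiDr, against 10.51, 10.59 and 10.47 with vehicle (-0.31 ± 0.08, adjusted p = 0.00334). HT29 arrays read 10.17, 10.16 and 10.28 with AZ628, against 9.72, 10.01 and 9.97 with vehicle (0.30 ± 0.08, adjusted p = 0.00385). It was the 1 member called in opposite directions in the lines, which befell 0.502% of all genes. Without probe sets whose names mark shared or mixed binding, its WiDr value was 0.10 (adjusted p = 0.471) and its HT29 value 0.04 (adjusted p = 0.776), so neither call held. The mean of all its probe sets gave 0.14 in HT29 (adjusted p = 0.0566). VLDLR, the receptor for very-low-density lipoprotein, differed by 0.29 ± 0.10 in WiDr (adjusted p = 0.0268), a call lost without AZ628 replicate 1 or 2 or vehicle replicate 3 (adjusted p = 0.0715 to 0.154). STC2 and FGF21 were dim on all arrays, at 3.13 to 3.68 and 3.41 to 3.89, and passed nowhere, and ADM2 passed in neither line.

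**Figure D2:**
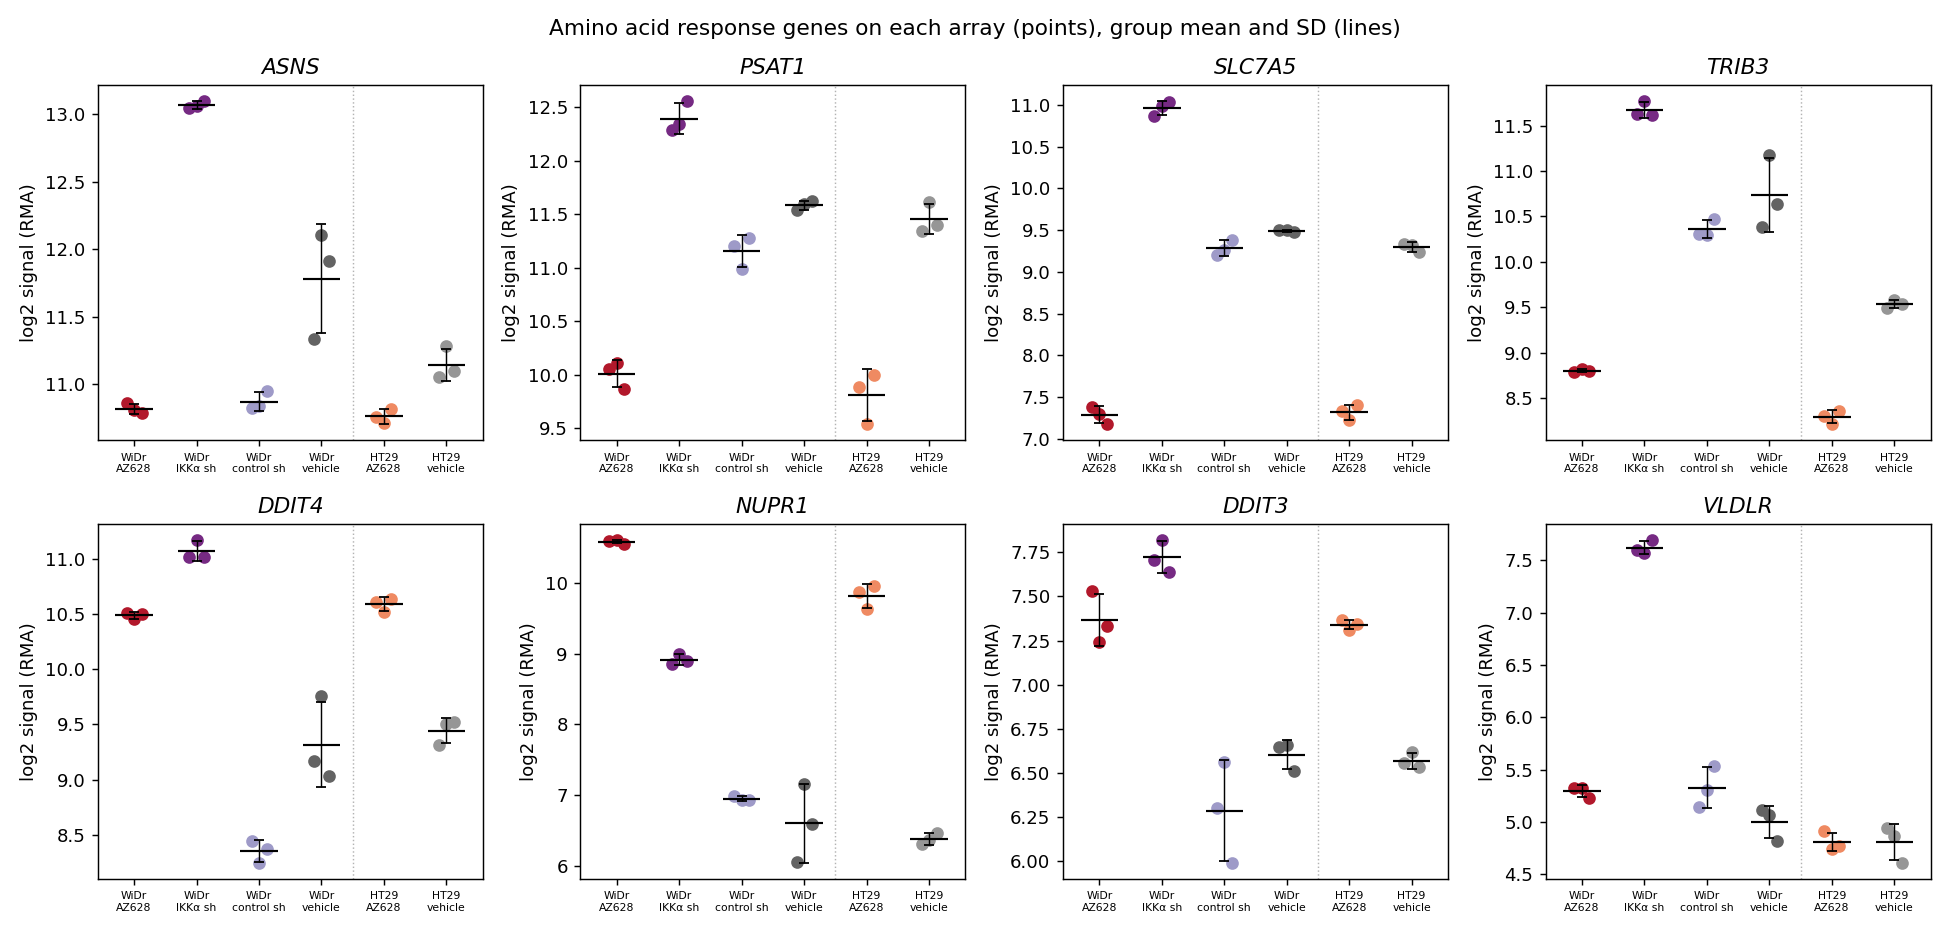
Log2 signal on each of the 18 arrays (points) for 8 members, with the group mean and SD (lines, n = 3 per group) and the 6 groups along the horizontal axis. PSAT1, SLC7A5 and TRIB3 lie lowest with AZ628 within each line and highest with IKKα shRNA. ASNS is highest with IKKα shRNA and lowest with AZ628 in HT29, but in WiDr its AZ628 arrays overlap those with control shRNA. DDIT4, NUPR1 and DDIT3 lie above the vehicle arrays with AZ628 and with IKKα shRNA. The vertical axes differ between genes and do not start at 0.

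The lines could be compared directly, since the AZ628 effects share no arrays. Over the 38 members the differences in WiDr and HT29 had Pearson's r = 0.971 across genes, and 34 had the same sign, against r = 0.891 and 76.2% over all genes. Genes are not independent replicates, so this is a description. In all 20 members were called lower in both lines, beside 17% of all genes, and 5 were called higher in both, namely ALDH18A1, DDIT3, NUPR1, DDIT4 and SESN2, beside 18.4%. The test of the difference between the effects called 5 members, TRIB3, PCK2, VEGFA, CEBPG and PYCR1, where 9.19% of all genes passed, 4.06% upward and 5.13% downward. All 5 were upward and none reached 2-fold, beside 0.458% of all genes upward and 0.507% downward. TRIB3 had the largest, 0.69 ± 0.18 (HT29 effect minus WiDr effect, adjusted p = 0.0251). In HT29 with vehicle it read 9.49 to 9.58, below the 10.38 to 11.18 of WiDr with vehicle, and with AZ628 the lines read 8.21 to 8.36 and 8.79 to 8.82.

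With vehicle alone, HT29 had lower signals for several regulators. In HT29 with vehicle 16 members were lower than in WiDr with vehicle, 3 were higher and 19 did not pass, where 32.2% of all genes passed, 16.9% upward and 15.3% downward. Past 2-fold, 2 were lower and 0 higher, beside 1.24% and 1.46% of all genes, and the groups did not overlap for 21 members, beside 41.2%. TRIB3 was lower by -1.20 ± 0.13 (adjusted p = 1.2e-06) and CEBPG by -0.90 ± 0.09 (adjusted p = 2.81e-07). JDP2 read 5.75, 5.87 and 6.35 in HT29 with vehicle, against 7.35, 6.98 and 7.01 in WiDr with vehicle (-1.12 ± 0.22, adjusted p = 0.000531). CEBPG read 9.61, 9.76 and 9.83 in HT29, against 10.51, 10.75 and 10.65 in WiDr. The groups stood apart for all 3 genes, and all 5 regulators called were lower in HT29, the others being ATF4 (-0.21), ATF5 (-0.88) and CEBPB (-0.56). CTH (0.41 ± 0.12), PYCR1 (0.27 ± 0.06) and SESN2 (0.19 ± 0.07) were the members higher in HT29. The call for CTH was lost without WiDr vehicle replicate 1 (adjusted p = 0.0767, in a range of 0.00147 to 0.0767), and that for SESN2 under 9 of 15 alternatives. The call for PYCR1 was lost with the probe set of a single transcript (0.15, adjusted p = 0.522) and without probe sets of shared or mixed binding (0.22, adjusted p = 0.073). Among the lower members, SLC7A5 lost its call whichever array was left out (adjusted p = 0.0508 to 0.142). Those for ALDH18A1, CHAC1 and PCK2 were also lost without some single arrays. Of the 19 calls in both directions, 13 stayed under every omission.

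With IKKα shRNA most members were higher. Against control shRNA 29 of the 38 members were higher, 1 was lower and 8 did not pass, where 34.9% of all genes passed, 15.9% upward and 19% downward. The median difference of the members was 0.68, against 0.02 over all genes, and 18 members were at least 2-fold higher, beside 1.52% of all genes. Against vehicle 26 were higher, 1 was lower and 11 did not pass, where 36.3% of all genes passed, 16.4% upward and 19.8% downward. The median was 0.65, against -0.06 over all genes, and 10 members were at least 2-fold higher, beside 1.67% of all genes. The groups did not overlap for 31 members against control shRNA and 27 against vehicle, beside 46.7% and 47.6% of all genes. The same 26 genes were called higher against both controls, beside 11.2% of all genes. The comparisons share the IKKα shRNA arrays.

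The mRNAs of the serine enzymes PHGDH, PSAT1 and PSPH were all called higher here. PHGDH read 10.45, 10.47 and 10.40 with IKKα shRNA, against 9.38, 9.42 and 9.30 with control shRNA (1.07 ± 0.07, 2.1-fold higher, adjusted p = 2.67e-09). PSAT1 read 12.28, 12.34 and 12.56 with IKKα shRNA, against 11.20, 10.99 and 11.27 with control shRNA (1.24 ± 0.11, adjusted p = 1.19e-07). The knockdown arrays lay above both control groups for both genes. PSPH was higher by 0.72 ± 0.08 and MTHFD2 by 1.13 ± 0.08. The 3 probe sets of PSPH disagreed, from -0.14 to 1.11 against control shRNA and from -0.04 to 1.04 against vehicle. MTHFD1L, which had fallen most with AZ628, read 11.15, 11.07 and 11.28 with IKKα shRNA, against 10.88, 10.76 and 10.81 with control shRNA (0.35 ± 0.07, adjusted p = 0.000902). Against vehicle MTHFD1L was higher by 0.23 ± 0.07 (adjusted p = 0.0205), a call lost without vehicle replicate 1 (0.19, adjusted p = 0.0845) and without IKKα shRNA replicate 3 (0.17, adjusted p = 0.109), in a range of 0.000763 to 0.109. SHMT2 passed narrowly at 0.17 ± 0.06 (adjusted p = 0.0476), and 8 of its 14 alternatives took the call away (adjusted p = 0.0216 to 0.345 over all 14). Against vehicle SHMT2 was higher by 0.50 ± 0.06 (adjusted p = 6.11e-06).

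ASNS read 13.04, 13.06 and 13.10 with IKKα shRNA, against 10.83, 10.84 and 10.95 with control shRNA (2.19 ± 0.13, 4.58-fold higher, adjusted p = 4.11e-10). Against vehicle, where it read 11.33, 12.10 and 11.91, the rise was 1.28 ± 0.13 (adjusted p = 4.5e-07). With control shRNA itself ASNS stood at -0.91 from vehicle, so the size of the rise differed with the control. CTH read 8.21, 7.99 and 8.18 with IKKα shRNA, against 6.19, 6.28 and 6.50 with control shRNA and 6.88, 7.44 and 7.23 with vehicle (1.81 ± 0.12 and 0.95 ± 0.12). PCK2 was higher by 1.35 ± 0.12 against control shRNA and 0.93 ± 0.12 against vehicle. PYCR1 was higher by 0.31 ± 0.06 and 0.35 ± 0.06, but the probe set whose name marks a single transcript gave 0.03 and -0.17. ALDH18A1 read 10.81, 10.72 and 10.76 with IKKα shRNA, against 11.38, 11.32 and 11.37 with control shRNA (-0.59 ± 0.05, adjusted p = 1.34e-07), and was lower by -0.36 ± 0.05 against vehicle. It was the only member called lower against either control.

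Of the 8 transporters 6 were higher against control shRNA and 5 against vehicle. SLC7A5 read 10.87, 10.98 and 11.04 with IKKα shRNA, against 9.21, 9.26 and 9.39 with control shRNA (1.68 ± 0.07, 3.2-fold higher, adjusted p = 3.66e-12) and 9.51, 9.50 and 9.48 with vehicle (1.47 ± 0.07). Its other probe set gave 0.29 against control shRNA. The partner of SLC7A5, SLC3A2, was higher by 1.28 ± 0.08 and 1.12 ± 0.08, the knockdown arrays at 11.95 to 12.09 against at most 11.04 in either control, and its 7 probe sets gave 1.28 to 1.59 against control shRNA. SLC7A11 read 12.24, 12.14 and 12.31 with IKKα shRNA, against 11.51, 11.61 and 11.63 with control shRNA (0.65 ± 0.10, adjusted p = 3.75e-05). SLC38A2 was higher by 1.06 ± 0.09 against control shRNA, with its 3 probe sets between 1.04 and 1.06, and SLC1A5 by 0.64 ± 0.06. SLC7A1, among the largest falls with AZ628, differed by 0.05 (95% interval -0.11 to 0.21, adjusted p = 0.668). SLC1A4 was higher by 0.39 ± 0.13 (adjusted p = 0.0249), a call lost in 4 of 14 alternatives, while its 6 probe sets ranged from 0.39 to 2.25. Against vehicle SLC7A1 and SLC1A4 did not pass. There the mean of all probe sets gave 0.27 for SLC7A1 (adjusted p = 0.00556) and 0.92 for SLC1A4 (adjusted p = 4.79e-08). SLC7A1 also passed without vehicle replicate 2 (0.21, adjusted p = 0.0361). SLC6A9 did not pass, at 0.12 ± 0.13, although 1 of its 7 probe sets gave 1.21.

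ATF4 mRNA read 13.28, 13.31 and 13.32 with IKKα shRNA, against 12.88, 12.84 and 12.85 with control shRNA and 12.86, 12.93 and 12.86 with vehicle (0.45 ± 0.05, adjusted p = 1.42e-06, and 0.42 ± 0.05, adjusted p = 3.47e-06). All 3 knockdown arrays lay above all 6 control arrays. CEBPG was higher by 0.49 ± 0.09 and 0.42 ± 0.09, whereas CEBPB read 11.17, 11.21 and 11.41 with IKKα shRNA, against 11.19, 11.05 and 11.12 with control shRNA, and did not pass (0.14, 95% interval -0.04 to 0.33, adjusted p = 0.224). ATF5 did not pass either (-0.06, 95% interval -0.20 to 0.08). DDIT3 read 7.71, 7.82 and 7.64 with IKKα shRNA, against 6.30, 6.56 and 5.99 with control shRNA (1.44 ± 0.11, adjusted p = 9e-09). NUPR1 read 8.85, 8.996 and 8.89 with IKKα shRNA, against 6.98, 6.93 and 6.92 with control shRNA and 6.05, 7.16 and 6.59 with vehicle (1.97 ± 0.17 and 2.31 ± 0.17). JDP2 read 8.68, 8.86 and 9.01 with IKKα shRNA, against 7.31, 7.31 and 7.44 with control shRNA (1.497 ± 0.22, adjusted p = 2.73e-05). For DDIT3, NUPR1 and JDP2 no knockdown array overlapped a control array.

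DDIT4 gave the largest rise against control shRNA. It read 11.02, 11.17 and 11.02 with IKKα shRNA, against 8.44, 8.25 and 8.37 with control shRNA (2.71 ± 0.13, 6.55-fold higher, adjusted p = 2.52e-11) and 9.17, 9.75 and 9.03 with vehicle (1.75 ± 0.13, 3.36-fold higher). TRIB3 read 11.63, 11.77 and 11.62 with IKKα shRNA, against 10.31, 10.30 and 10.47 with control shRNA (1.31 ± 0.13, adjusted p = 3.24e-07). CHAC1 read 8.36, 8.69 and 8.85 with IKKα shRNA, against 6.94, 6.95 and 6.99 with control shRNA (1.68 ± 0.14, adjusted p = 3.08e-08). SESN2 read 8.84, 8.90 and 8.92 with IKKα shRNA, against 7.29, 7.35 and 7.48 with control shRNA (1.51 ± 0.07, adjusted p = 7.73e-12). Against vehicle the rises were 0.94 for TRIB3, 0.93 for CHAC1 and 1.17 for SESN2, and all passed. PPP1R15A was higher against control shRNA only (0.33 ± 0.09 against control shRNA, adjusted p = 0.00536; 0.19 ± 0.09 against vehicle, adjusted p = 0.1), a difference between controls that did not pass in itself (adjusted p = 0.235). XPOT passed against neither control.

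VLDLR was the member with the largest rise against vehicle. It read 7.60, 7.58 and 7.70 with IKKα shRNA, against 5.14, 5.30 and 5.53 with control shRNA (2.30 ± 0.10, 4.91-fold higher, adjusted p = 1.15e-11) and 5.11, 5.07 and 4.82 with vehicle (2.62 ± 0.10, 6.16-fold higher, adjusted p = 2.85e-12). The knockdown arrays stood more than 2 log2 units above every control array. VEGFA read 11.44, 11.45 and 11.63 with IKKα shRNA, against 10.20, 10.16 and 10.18 with control shRNA (1.33 ± 0.08, adjusted p = 4.41e-10). Its 10 probe sets gave 0.23 to 1.65 against control shRNA and -0.16 to 1.52 against vehicle, and the alternative without mixed probe sets gave 0.07 there (adjusted p = 0.623). ADM2 was higher by 0.27 ± 0.08 against control shRNA (adjusted p = 0.0187) and not against vehicle (-0.16, adjusted p = 0.154). Its first call was lost without control shRNA replicate 3 or IKKα shRNA replicate 2 or 3 (adjusted p = 0.0540 to 0.0790).

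**Figure D3:**
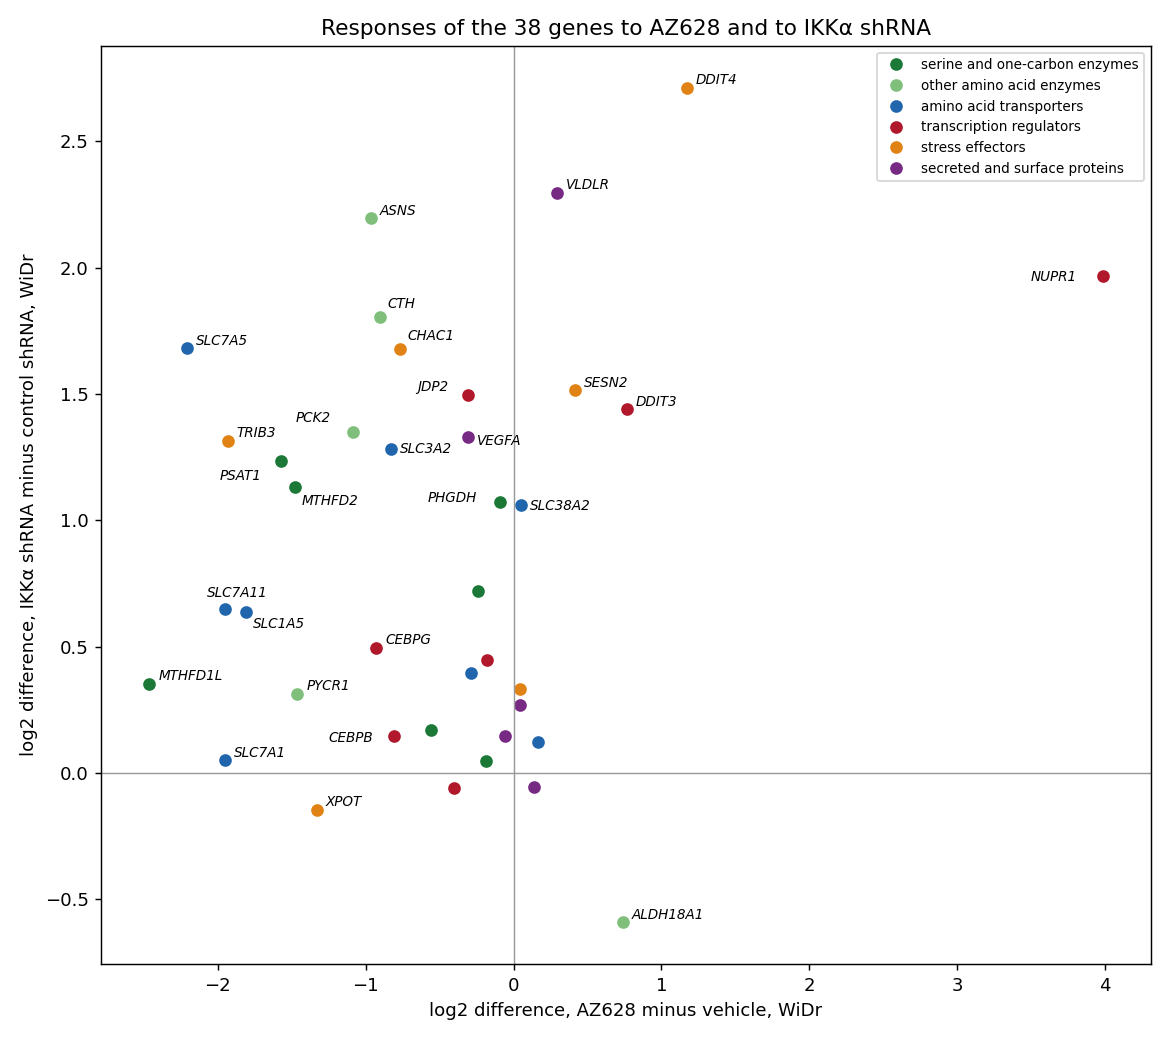
Each point is 1 of the 38 measured genes, coloured by role, with its log2 difference for AZ628 minus vehicle in WiDr (horizontal axis) and for IKKα shRNA minus control shRNA (vertical axis). SLC7A5 lies at -2.21 and 1.68, NUPR1 at 3.98 and 1.97, and ALDH18A1 at 0.74 and -0.59.

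Set side by side, the inhibitor and the knockdown moved some members in opposite directions and others in the same one. Called lower with AZ628 in both lines and higher with IKKα shRNA against both controls were 16 members, beside 2.79% of all genes: PSAT1, SHMT2, MTHFD2, MTHFD1L, ASNS, CTH, PCK2, PYCR1, SLC7A5, SLC7A11, SLC3A2, SLC1A5, ATF4, CEBPG, TRIB3 and CHAC1. Some of them rest on calls that alternatives took away. With AZ628 these were ATF4 in both lines and ASNS and CHAC1 in HT29. With IKKα shRNA they were SHMT2 against control shRNA and MTHFD1L against vehicle. PYCR1 passed in none of the 4 comparisons with its single-transcript probe set. Called higher in all 4 comparisons were DDIT3, NUPR1, DDIT4 and SESN2, beside 4.03% of all genes. ALDH18A1 had the reverse of the first pattern. AZ628 in WiDr and IKKα shRNA against control shRNA share no arrays, and 11 of the 38 members had the same sign in both (50.3% of all genes), with r = 0.199 across members and -0.00 across all genes. These are descriptions across genes, which are not independent replicates.

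Whether the effects differed was tested as (IKKα shRNA minus control shRNA) minus (AZ628 minus vehicle) in WiDr. In this test 30 members were higher, 2 lower and 6 did not pass, where 42.4% of all genes passed, 20.1% upward and 22.3% downward, and the median was 1.30, against 0.04 over all genes. Past 2-fold, 23 members were higher and 2 lower, beside 5.03% and 6.93% of all genes. SLC7A5 had the largest value, 3.89 ± 0.10 (adjusted p = 6.81e-15), followed by TRIB3 at 3.25 ± 0.18 and ASNS at 3.16 ± 0.18. For NUPR1 the value was -2.02 ± 0.25 (adjusted p = 2.18e-06), since it rose less with IKKα shRNA than with AZ628. For ALDH18A1 it was -1.33 ± 0.08 (adjusted p = 1.95e-10). DDIT4, DDIT3 and SESN2, which rose with both, had values of 1.54, 0.67 and 1.10, and all passed. These values include the lower level with control shRNA than with vehicle (-0.96, -0.32 and -0.34). So do those of SLC7A5, TRIB3 and ASNS, for which the controls differed by -0.21, -0.37 and -0.91. Against the same vehicle arrays, DDIT4 was higher by 1.75 with IKKα shRNA and 1.17 with AZ628, DDIT3 by 1.12 and 0.76, and SESN2 by 1.17 and 0.42, differences between the agents that were not tested against vehicle alone.

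The controls of WiDr were themselves not alike. With control shRNA 13 members were lower than with vehicle, 3 were higher and 22 did not pass, where 22.2% of all genes passed, 11.6% upward and 10.6% downward. None passed at 2-fold or more, beside 0.364% of all genes upward and 0.0276% downward, while 16 passed without that minimum (limma). The groups did not overlap for 16 members, beside 40.3% of all genes. The median was -0.15, against -0.04 over all genes. DDIT4 had the largest fall, at 8.44, 8.25 and 8.37 with control shRNA against 9.17, 9.75 and 9.03 with vehicle (-0.96 ± 0.13, adjusted p = 6.7e-05). ASNS followed with -0.91 ± 0.13 (adjusted p = 0.000118), CTH with -0.86 ± 0.12 (adjusted p = 7.87e-05) and CHAC1 with -0.75 ± 0.14 (adjusted p = 0.0012). The groups did not overlap for these genes. SHMT2 (0.33 ± 0.06), VLDLR (0.33 ± 0.10) and ALDH18A1 (0.23 ± 0.05) were higher. ATF4 itself differed by -0.03 (95% interval -0.13 to 0.08). The labels do not say whether the vehicle cells were transduced, so treatment with vehicle and transduction cannot be told apart here.

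Of the 16 calls, those for PSAT1, PCK2, SLC7A5, DDIT3, TRIB3 and VLDLR were each lost when some single array was left out, and 10 stayed under every omission. TRIB3 in particular gave -0.15 without vehicle replicate 2 (adjusted p = 0.239), against -0.37 ± 0.13 with all arrays (adjusted p = 0.0497). The WiDr vehicle arrays were spread for several members. NUPR1 read 6.05, 7.16 and 6.59 there, PCK2 7.69, 8.37 and 7.94, and TRIB3 10.38, 11.18 and 10.64, with replicate 1 the lowest in each. Called lower with control shRNA than with vehicle and higher with IKKα shRNA than with control shRNA were 13 members, beside 3.24% of all genes, and since these comparisons share the control shRNA arrays the count is a description.

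**Figure D4:**
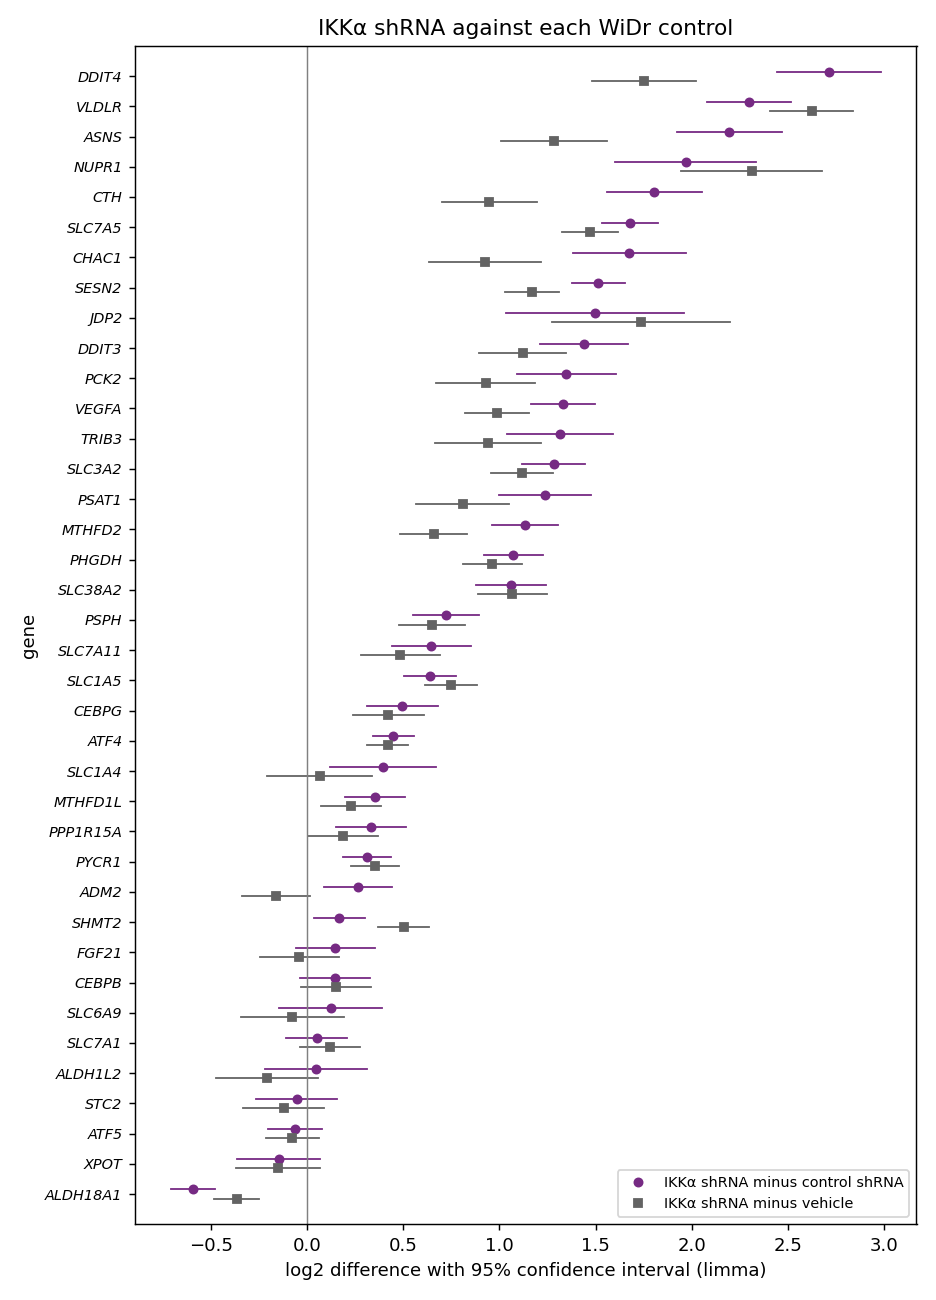
Log2 difference (horizontal axis) with its 95% confidence interval from limma for IKKα shRNA minus control shRNA (circles) and IKKα shRNA minus vehicle (squares), for the 38 measured genes (vertical axis). DDIT4 (2.71 and 1.75) and ASNS (2.19 and 1.28) have intervals that do not meet, while ATF4 (0.45 and 0.42) differs little between the controls.

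Around the members, 91 further genes of the pathway were measured. Counts of these lists stand beside the shares of all genes given above, 15.9% higher and 19% lower with IKKα shRNA against control shRNA and 23.4% higher and 21.1% lower with AZ628 in WiDr. Of 17 genes for the eIF2α kinases, their helpers and the initiation factor, 2 were higher, 5 were lower and 10 did not pass with IKKα shRNA against control shRNA, 41.2% in all where 34.9% of all genes passed. EIF2AK4 (GCN2) differed by 0.12 ± 0.10, EIF2AK3 (PERK) by 0.26 ± 0.10, EIF2AK2 (PKR) by 0.16 ± 0.09 and EIF2AK1 (HRI) by -0.05 ± 0.06, and none passed. With other probe sets some did: the mean of all probe sets gave 0.27 for EIF2AK4 (adjusted p = 0.00722) and 0.23 for EIF2AK2 (adjusted p = 0.00873), and single-transcript probe sets gave -0.37 for EIF2AK1 (adjusted p = 0.000698). EIF2AK3, at an adjusted p of 0.0578, passed under several alternatives. EIF2S3, the γ subunit of eIF2, read 9.74, 9.48 and 9.82 with IKKα shRNA, against 11.01, 10.92 and 11.01 with control shRNA (-1.30 ± 0.09, adjusted p = 2.23e-09). IMPACT, an inhibitor of GCN2, was lower by -1.01 ± 0.07 (adjusted p = 2.02e-09), and PPP1R15B, the constitutive subunit that dephosphorylates eIF2α, by -0.61 ± 0.08 (adjusted p = 8.7e-06). All 3 were also lower against vehicle, by -1.35, -1.06 and -0.56. EIF2AK2 was higher than with vehicle in both shRNA groups, by 1.02 ± 0.09 with IKKα shRNA and 0.86 with control shRNA. EIF2AK4 was also called higher with IKKα shRNA than with vehicle. That call was lost with single-transcript probe sets (0.19, adjusted p = 0.222) and without those named for shared or mixed binding (adjusted p = 0.181).

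With AZ628 in WiDr 4 of the 17 were higher, 8 were lower and 5 did not pass, 70.6% in all where 44.6% of all genes passed. EIF2S1, which encodes eIF2α, differed by -1.37 ± 0.07 in WiDr and -1.35 ± 0.07 in HT29. EIF2B3, a subunit of the exchange factor, differed by -1.06 and -1.01, and GCN1, the activator of GCN2, by -1.06 and -0.74. EIF2AK3 was higher by 0.28 ± 0.10 in WiDr (adjusted p = 0.029) and 0.43 ± 0.10 in HT29 (adjusted p = 0.00188), but the WiDr call was lost with centred arrays and without AZ628 replicate 2, vehicle replicate 2 or vehicle replicate 3 (adjusted p = 0.0953 to 0.138). EIF2AK1 and EIF2AK4 passed in neither line, although alternatives changed that for both.

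Other genes known as ATF4 targets were mostly higher with IKKα shRNA. Of 14 measured, 10 were higher, 1 was lower and 3 did not pass against control shRNA, beside 15.9% of all genes higher and 19% lower. With AZ628 in WiDr 7 were higher, 5 lower and 2 did not pass, beside 23.4% of all genes higher and 21.1% lower. EIF4EBP1, the translation repressor 4E-BP1, read 11.93, 12.03 and 11.86 with IKKα shRNA, against 10.68, 10.71 and 10.78 with control shRNA (1.22 ± 0.07, adjusted p = 1.25e-10), and fell by 2.17 with AZ628 in WiDr and by 1.40 in HT29. It thus had the pattern of the 16 members. GDF15, a stress hormone, was higher by 1.71 ± 0.10 with IKKα shRNA and by 0.43 and 1.03 with AZ628 in WiDr and HT29. HMOX1, haem oxygenase, was higher by 2.76 ± 0.08 with IKKα shRNA, by 2.18 with AZ628 in WiDr and by 1.24 in HT29. INHBE, an activin subunit, was dim, at 4.54, 4.66 and 4.55 with IKKα shRNA against 3.63, 3.46 and 3.44 with control shRNA (1.08 ± 0.14, adjusted p = 8.72e-06). ATF3, a stress-induced repressor, was higher by 0.74 ± 0.08 with IKKα shRNA and differed by -0.39 ± 0.08 with AZ628 in WiDr, and the AZ628 value became -0.13 with the mean of its 7 probe sets (adjusted p = 0.0654). KLHL24 was higher with AZ628 by 1.79 in WiDr and 1.95 in HT29. With IKKα shRNA it gave 0.13 (not passed), and 0.33 with the mean of its probe sets (adjusted p = 0.00078).

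In the neighbouring lists the shares are again read against 44.6% of all genes passing with AZ628 in WiDr and 34.9% with IKKα shRNA. Of 12 other genes of folate, glycine and methionine metabolism, 8 fell, none rose and 4 did not pass with AZ628 in WiDr, and with IKKα shRNA 0 rose, 4 fell and 8 did not pass, a share of 33.3% that is near that of all genes. MTHFD1, the cytosolic folate enzyme, differed by -1.78 ± 0.07 in both lines, and SLC25A32, the folate carrier of the mitochondrion, by -1.82 and -1.65. SFXN1, the serine carrier of the mitochondrion, differed by -0.97 and -1.06 with AZ628 and by -0.79 ± 0.10 with IKKα shRNA. Of 19 other amino acid transporters, 4 rose, 10 fell and 5 did not pass with AZ628 in WiDr, and 3 rose, 7 fell and 9 did not pass with IKKα shRNA (73.7% and 52.6% passed). SLC7A2, a carrier of cationic amino acids, differed by -2.44 in WiDr, -1.81 in HT29 and -0.83 with IKKα shRNA, and SLC38A5, a glutamine carrier, by -2.35 and -1.87 with AZ628. SLC6A14, a broad importer, was higher by 1.79 ± 0.18 with IKKα shRNA (adjusted p = 3.67e-07), and its 3 probe sets ranged from 1.79 to 5.79. SLC3A1, the heavy chain of another exchanger, went against SLC3A2, with 2.41 ± 0.13 and 3.14 ± 0.13 for AZ628 in WiDr and HT29 and -2.41 ± 0.13 for IKKα shRNA. For SLC3A1 the probe set whose name marks a single transcript gave 0.17 (adjusted p = 0.410) in WiDr with AZ628 and -0.14 (adjusted p = 0.539) with IKKα shRNA.

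Of 10 other amino acid enzymes, 5 rose, 3 fell and 2 did not pass with AZ628 in WiDr, and 0 rose, 5 fell and 5 did not pass with IKKα shRNA (80% and 50% passed, where 44.6% and 34.9% of all genes did). ASL had the largest difference of the list with IKKα shRNA, -1.15 ± 0.05 against control shRNA (adjusted p = 1.04e-11) and -0.82 ± 0.05 against vehicle. With AZ628 ASL was higher by 0.17 in WiDr (adjusted p = 0.0121) and gave 0.06 in HT29 (not passed). GLUL, glutamine synthetase, was higher by 1.02 ± 0.05 and 0.95 ± 0.05 with AZ628 in WiDr and HT29, and lower by -0.41 ± 0.05 with IKKα shRNA against control shRNA. OAT, which links ornithine and proline, was higher by 0.78 and 1.13 with AZ628 and lower by -0.51 with IKKα shRNA against control shRNA. Against vehicle OAT gave 0.14 with IKKα shRNA (not passed) and 0.65 with control shRNA (adjusted p = 0.000637), so its direction turned with the control, while GLUL was lower against vehicle too (-0.19), a call lost with the mean of its probe sets (adjusted p = 0.0939) and without those named for shared or mixed binding (adjusted p = 0.119). Of 19 genes of amino acid sensing by mTORC1, 9 rose, 5 fell and 5 did not pass with AZ628 in WiDr, and 6 rose, 3 fell and 10 did not pass with IKKα shRNA (73.7% and 47.4% passed, where 44.6% and 34.9% of all genes did). SESN1, a relative of SESN2, was higher by 2.15 ± 0.06 and 2.42 ± 0.06 with AZ628 in WiDr and HT29 and lower by -0.87 ± 0.06 with IKKα shRNA, where SESN2 was higher. RRAGC, one of the Rag GTPases, was higher by 0.88, 0.86 and 0.69 in these 3 comparisons.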

How the data were processed

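Expression was measured on 18 Affymetrix arrays, 3 in each of 6 groups taken from the labels. The authors deposited log2 values made by robust multi-array averaging (RMA), with limma and R 3.0.2 also named, per the submitters' processing notes, and no step was repeated. Of 49395 probe sets, 102 were controls and 44994 carried 1 gene symbol, 1832 several and 2569 none. A gene was read from its brightest single-symbol probe set, by the 18-array mean, leaving 18132 genes, so that a gene with disagreeing probe sets rests on 1 of them. A linear model over the 6 groups was fitted with limma 3.58.1 (lmFit, eBayes) in R 4.3.3, with Benjamini-Hochberg adjustment over all genes, and was tested on simulated data. Calls had an adjusted p under 0.05, and errors are standard errors of the model. The members and gene lists were chosen with earlier results of these data known. Array values are given for 13 fixed members and the 3 largest passing rises and falls of each comparison, and of the other pathway lists up to 4 passing genes with the largest differences, the eIF2α kinases and ATF3 are named. Alternatives were other probe set rules, a filter on dim genes, quantile normalization, centring, fits on fewer groups, a replicate block, trended and robust eBayes and leaving out each array. Numbers shared between groups gave little sign of pairing (correlations of deviations -0.23 to 0.18, 1 of 9 above 0.1). With 3 arrays in each group such a check cannot exclude it. The number of arrays limits the precision.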

Additional observations from a re-analysis of the deposited data

Results flagged for a closer look

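The effect of AZ628 differed between HT29 and WiDr for 5 members by the test of the difference itself (limma, HT29 effect minus WiDr effect). They were 13.2% of the 38 measured, beside 9.19% of all genes. TRIB3 gave 0.69 (adjusted p = 0.0251, 0.00147 to 0.0635 over its alternatives) and PCK2 gave 0.64 (adjusted p = 0.0251, 0.00229 to 0.0707), and both fell less in HT29. VEGFA gave 0.61 (adjusted p = 0.00143), but without probe sets of shared or mixed binding the value was -0.06 (adjusted p = 0.902). CEBPG gave 0.56 (adjusted p = 0.00671, 0.00102 to 0.0222) and passed under every alternative run. PYCR1 gave 0.45 (adjusted p = 0.00178), and -0.21 with single-transcript probe sets (adjusted p = 0.679).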

How the results depend on the processing

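The counts of members that passed in the 8 comparisons (AZ628 in WiDr, AZ628 in HT29, IKKα shRNA against control shRNA, IKKα shRNA against vehicle, control shRNA against vehicle, HT29 against WiDr, AZ628 in HT29 minus WiDr, and IKKα shRNA minus AZ628) moved little with the filter on dim genes, quantile normalization, centring, the mean of all probe sets or trended and robust eBayes. With probe sets of a single transcript only 10 members were left, and the counts were 5, 5, 5, 4, 1, 1, 1 and 6. Requiring at least 2-fold as well gave 13, 12, 18, 10, 0, 2 and 0 in the first 7. With only the groups of the comparison in the fit, 3 members differed in their AZ628 effect between lines. Leaving out each array in turn gave 27 to 28, 23 to 28, 27 to 29, 26 to 28, 11 to 15, 15 to 19, 3 to 6 and 32 to 33, with the 3 found without WiDr AZ628 replicate 1. Reversed values came from the choice of probe set. The mean of all probe sets gave -0.33 and -0.065 for SLC38A2 with AZ628 in WiDr and HT29, and 0.31 for SLC6A9 in IKKα shRNA minus AZ628. Single-transcript probe sets gave PYCR1 -0.17 for IKKα shRNA against vehicle and -0.21 for the difference between lines. Leaving out probe sets of shared or mixed binding, an alternative chosen after seeing the data, gave VEGFA 0.10 with AZ628 in WiDr and -0.056 for the difference between lines, and SLC6A9 0.78 for IKKα shRNA against vehicle, -0.35 for HT29 against WiDr and 1.39 for IKKα shRNA minus AZ628. Centring moved the median of all genes in IKKα shRNA minus AZ628 to 0.14, against 0.04 as deposited.

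With the replicate number as a block the counts were 28, 27, 30, 27, 15, 18, 5 and 32. The arrays share only a number, and 7 of 18 correlated best with their own number in the other group. These were 4 of 6 for the shRNA groups, 3 of 6 for AZ628 and vehicle in WiDr and 0 of 6 in HT29.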
